A study of Mus musculus with 15 samples.

Results

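Rasgrp1, Pdcd1, Camk4 and Zap70 are 4 of the 18194 genes measured, and all 13 of their probe sets, of 45101 on the array, are described here. They were picked by gene symbol, with earlier results of the same arrays known, because their values in Apc-mutant cells lay above those of wild-type cells. Their own levels are therefore a description, given without a test. The array had 4 probe sets for Rasgrp1, 1 for Pdcd1, 5 for Camk4 and 3 for Zap70.

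The 4 proteins act in signalling from antigen receptors. In T cells, the kinase ZAP-70 binds the phosphorylated chains of the engaged receptor and phosphorylates the adaptors LAT and SLP-76, after which phospholipase C releases diacylglycerol and calcium. RASGRP1 is a nucleotide exchange factor that diacylglycerol recruits to the membrane, where it switches on Ras and the ERK kinases, and CAMK4 is a kinase activated by calcium and calmodulin that phosphorylates the transcription factor CREB. PD-1, the product of Pdcd1, is a receptor of the CD28 family that carries phosphatases to the membrane and damps the same signals.

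The RNA came from LSK cells, bone marrow cells that lack lineage markers and carry Sca1 and Kit. The mice were C57BL6 and carried wt/wt, 15lox/15lox, 15lox/1572T or 15lox/1638N at Apc, whose protein holds together the kinases that tag beta-catenin for destruction; 15lox is a floxed allele, and 1572T and 1638N are hypomorphic alleles. Cells of every genotype, the wild type included, were transduced ex vivo with the retrovirus MSCV-Cre-IRES-GFP, sorted for GFP and cultured with the cytokines mFlt3L, mTpo and mSCF. There was 1 array for each of 6 wild-type samples and for each of 3 samples of every other genotype; neither the age of the mice nor the time after transduction is known from the labels. Values are log2 probe set summaries with array medians of 6.65 to 6.84.

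The wild-type arrays 1 to 3 were not used as controls, since at 96.7% of probe sets the means of the 2 wild-type sets differed by at most 0.05. Comparisons below use wild-type arrays 4 to 6, so n = 3 in every group. The labels do not say whether samples of a group came from separate animals, so a p-value may reflect technical spread alone. Probe set 1420956_at of the targeted gene Apc read 9.61 to 9.93 in wild-type cells, 8.64 to 8.96 in 15lox/1572T, 8.47 to 8.67 in 15lox/1638N and 5.58 to 6.10 in 15lox/15lox, whereas Apc probe set 1435543_at read highest in 15lox/15lox (10.23 to 10.66); which of them lies in the deleted part was not used here. Of the LSK genes, Kit read 10.75 to 11.54, Cd34 13.26 to 13.61 and Flt3 12.01 to 12.84 over the 12 arrays, and the gene of Sca1 was not analysed here. By Xist and Y-linked genes, 0 of the 3 wild-type arrays, 1 of 3 in 15lox/1572T, 1 of 3 in 15lox/1638N and 2 of 3 in 15lox/15lox were of female type. The Y-linked genes read 3.67 to 5.61 on those female-type arrays, which shows the level that a probe set can read where its transcript should be missing.

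The bases before the transcription start are shown for 3 of the genes. At the probe set of highest mean, the group means of Rasgrp1, Pdcd1 and Zap70 rose in the same order. That order ran from wild type through 15lox/1572T and 15lox/1638N to 15lox/15lox. For Zap70 the groups below 15lox/15lox overlapped, with means of 8.61, 8.69 and 9.04 against 9.91. Camk4, whose means did not follow that order, was left out by its chromosome and not by its levels. Each line is the 250 bases before an annotated start, 5′ to 3′, from RefSeq on GRCm38.p6, and capitals mark motif matches.
Rasgrp1, chr2:117342878-117343127, minus strand: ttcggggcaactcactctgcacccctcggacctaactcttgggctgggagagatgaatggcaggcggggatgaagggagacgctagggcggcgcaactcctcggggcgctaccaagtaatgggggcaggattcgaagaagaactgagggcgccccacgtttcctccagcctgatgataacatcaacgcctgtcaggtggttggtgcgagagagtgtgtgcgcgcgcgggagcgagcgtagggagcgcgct
Pdcd1, chr1:94052554-94052803, minus strand: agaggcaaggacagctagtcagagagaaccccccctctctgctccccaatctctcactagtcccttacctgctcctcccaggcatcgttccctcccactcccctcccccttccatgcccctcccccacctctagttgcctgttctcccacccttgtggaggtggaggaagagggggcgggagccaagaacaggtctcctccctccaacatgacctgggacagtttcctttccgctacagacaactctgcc
Zap70, chr1:36761548-36761797, plus strand: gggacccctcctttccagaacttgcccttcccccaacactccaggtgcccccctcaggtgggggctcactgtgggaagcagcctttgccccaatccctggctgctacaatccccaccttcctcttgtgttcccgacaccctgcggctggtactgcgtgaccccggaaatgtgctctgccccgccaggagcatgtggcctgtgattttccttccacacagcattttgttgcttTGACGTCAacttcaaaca
Both strands were searched for the letters CTTTGAA, which TCF and LEF factors bind, and for their variants that end in T in place of the last A (CTTTGAT), in a T and an A (CTTTGTA) or in a pair of T (CTTTGTT). The letters TGTGGT, bound by RUNX factors, and TGACGT, from the cAMP response element that CREB binds, were searched likewise. The capitals in the Zap70 line are TGACGT and its reverse complement, which overlap there and together lie 18 to 11 bases before the start; TGACGT occurs in 6.47% of the 32851 promoter windows of the same length. Zap70 has 2 further annotated starts, and the window before the start that follows chr1:36764265-36764514 holds TGTGGT 75 to 70 bases before it, as do 14.05% of all windows on either strand. The TCF and LEF letters occur in 14.84% of all windows and were not found in these 5 windows of the 3 genes. A match or its lack describes only these letters.

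Rasgrp1 had the widest range of the 4 genes across genotypes. Its probe set of highest mean, 1434295_at, read 5.67, 6.03 and 6.86 on wild-type arrays 4 to 6, and 7.95, 8.03 and 9.01 on the arrays of 15lox/1572T. It read 10.22, 10.53 and 11.81 in 15lox/1638N, and 12.48, 11.81 and 12.21 in 15lox/15lox. Every array of each genotype lay above every array of the genotype before it in this order, except that 15lox/1638N array 3 equalled the lowest 15lox/15lox array. The mean difference from wild type was 5.98 ± 0.44 on the log2 scale (SE of the fit), or 63.1-fold, in 15lox/15lox. It was 4.67 ± 0.44, or 25.4-fold, in 15lox/1638N and 2.14 ± 0.44, or 4.41-fold, in 15lox/1572T.

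The other Rasgrp1 probe sets gave the same order for 15lox/15lox and 15lox/1638N but not the step at 15lox/1572T. Probe set 1431749_a_at averaged 4.86 ± 0.15 (SD) in wild type, 5.00 ± 0.34 in 15lox/1572T, 6.54 ± 0.79 in 15lox/1638N and 7.59 ± 0.53 in 15lox/15lox. Probe set 1421176_at averaged 4.62, 4.64, 5.75 and 6.19 in the same order, and 1450143_at averaged 4.49, 4.34, 5.43 and 6.51. In wild-type and 15lox/1572T cells these 3 probe sets therefore read within the range of Y-linked genes on female-type arrays, the level of probe sets whose transcript should be missing. The plot of all probe sets shows the 4 readings of Rasgrp1 side by side. In bulk RNA a higher level in each cell cannot be told apart from a larger share of cells with the transcript.

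**Figure D1:**
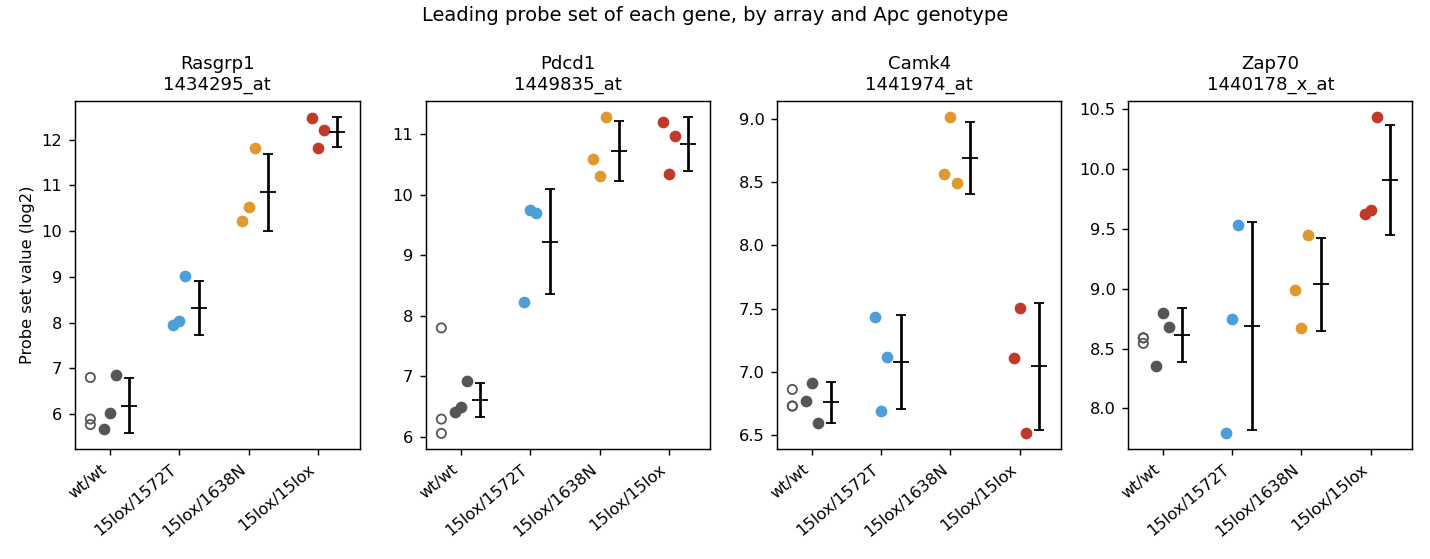
Value of the leading probe set (log2, vertical axis, a separate range in each panel) of Rasgrp1, Pdcd1, Camk4 and Zap70 on each array, by Apc genotype. Filled points are the 3 arrays per group used in the comparisons, open points wild-type arrays 1 to 3, and black bars the mean with SD; Rasgrp1 and Pdcd1 step upward from wild type through 15lox/1572T, Camk4 stands apart in 15lox/1638N, and Zap70 is highest in 15lox/15lox.

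Pdcd1 followed the same order, with less distance between the higher genotypes. Its probe set 1449835_at read 6.40, 6.50 and 6.92 on wild-type arrays 4 to 6, and 8.22, 9.75 and 9.70 in 15lox/1572T. It read 10.59, 10.31 and 11.28 in 15lox/1638N, and 11.21, 10.35 and 10.98 in 15lox/15lox. The wild-type, 15lox/1572T and 15lox/1638N groups did not overlap, while the arrays of 15lox/1638N and 15lox/15lox were interleaved. Differences from wild type were 4.24 ± 0.40 (SE), or 18.9-fold, in 15lox/15lox, 4.12 ± 0.40, or 17.4-fold, in 15lox/1638N and 2.62 ± 0.40, or 6.13-fold, in 15lox/1572T. The 15lox/15lox mean exceeded that of 15lox/1638N by only 0.12 ± 0.40 for Pdcd1, against 1.31 ± 0.44 for Rasgrp1. In wild-type arrays 1 to 3 Pdcd1 read 6.06, 6.29 and 7.80, so that the third lay above the other wild-type arrays and still below every mutant array.

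Camk4 gave a different picture, since its probe sets disagreed. Probe set 1441974_at, that of highest mean, read 6.77, 6.91 and 6.60 in wild type and 8.56, 9.02 and 8.49 in 15lox/1638N, which was 1.93 ± 0.25 (SE) higher, or 3.82-fold. It read 7.43, 6.69 and 7.12 in 15lox/1572T, and 7.11, 7.51 and 6.52 in 15lox/15lox. The 15lox/1638N arrays lay above all others, and the remaining 3 genotypes overlapped, and the difference of 15lox/15lox from 15lox/1638N was -1.65 ± 0.25. Probe set 1439843_at showed the difference in the other genotype. It read 5.41, 5.27 and 5.81 in 15lox/15lox against 4.51, 4.60 and 4.73 in wild type, a difference of 0.88 ± 0.13, and 0.13 ± 0.13 in 15lox/1638N, all close to the level of Y-linked genes on female-type arrays. The other 3, 1421941_at, 1426167_a_at and 1452572_at, differed from wild type by -0.31 to 0.12 over the 3 mutant genotypes, with groups that overlapped wild type throughout.

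Zap70 was highest in 15lox/15lox cells. Probe set 1440178_x_at read 8.36, 8.80 and 8.68 in wild type and 9.63, 9.66 and 10.44 in 15lox/15lox, a difference of 1.30 ± 0.38 (SE), or 2.46-fold. In 15lox/1638N it read 8.99, 8.67 and 9.45, and in 15lox/1572T it read 7.79, 8.75 and 9.53. The 15lox/15lox arrays lay above all others, while wild type, 15lox/1638N and 15lox/1572T overlapped, and 15lox/1572T had the widest spread (SD 0.87). The suffix of this probe set marks probes that can also match other transcripts. Probe set 1422701_at gave a like picture, with 7.35 ± 0.30 (SD) in wild type, 8.77 ± 0.08 in 15lox/15lox, 7.97 ± 0.52 in 15lox/1638N and 7.22 ± 0.80 in 15lox/1572T. The third probe set, 1439749_at, was 0.52 ± 0.25 above wild type in 15lox/15lox, with groups that overlapped.

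Counted over all 13 probe sets, 8 had every 15lox/15lox array above every wild-type array, against 6.92% of all probe sets; 6 did so in 15lox/1638N, against 12.3%, and 2 in 15lox/1572T, against 4.74%. Between mutant genotypes, 4 had every 15lox/15lox array above every 15lox/1638N array (5.97% of all probe sets), 8 above every 15lox/1572T array (5.27%), and 7 had every 15lox/1638N array above every 15lox/1572T array (7.04%). The genes were picked on these arrays, so nothing is read from these counts, and the comparisons share samples.

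**Figure D2:**
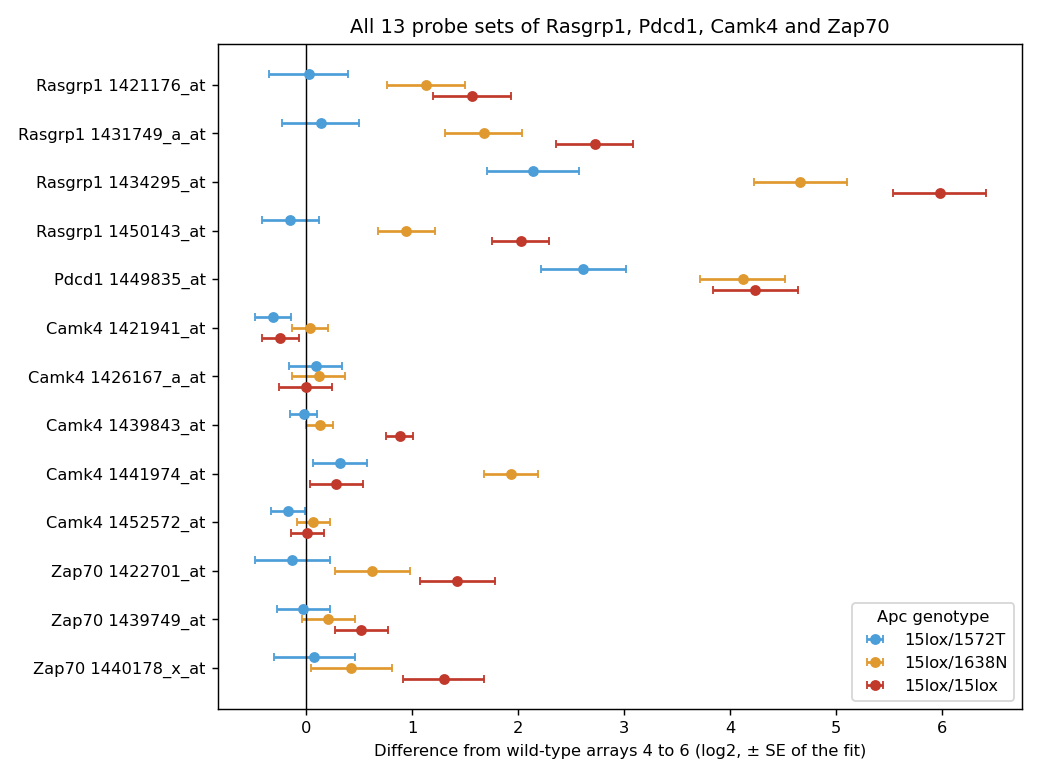
Difference of each mutant genotype from wild-type arrays 4 to 6 (log2, horizontal axis, with SE of the fit) for each of the 13 probe sets. All 4 Rasgrp1 probe sets lie right of 0 in 15lox/15lox and 15lox/1638N, whereas 1441974_at of Camk4 stands out in 15lox/1638N and 1439843_at in 15lox/15lox.

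Within a genotype, the arrays that were high for one gene were often high for the others, with Camk4 running the other way. In 15lox/1638N, array 3 had the highest value of the leading probe sets of Rasgrp1, Pdcd1 and Zap70 and the lowest of Camk4. In 15lox/1572T, array 1 had the lowest value of Rasgrp1, Pdcd1 and Zap70 and the highest of Camk4. In 15lox/15lox, array 2 was lowest for Rasgrp1 and Pdcd1 and highest for Camk4, while Zap70 read 9.63 and 9.66 on arrays 1 and 2. Of these, 15lox/1638N array 3, 15lox/1572T array 1 and 15lox/15lox array 2 were of female type, as was 15lox/15lox array 3, which had the lowest Camk4 value of its group and the highest of Zap70. With sex as a covariate, the Pdcd1 difference in 15lox/15lox was 4.51 and the Rasgrp1 difference 5.89; the part of sex in the pattern within genotypes was not tested.

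The genes of most similar profile were found by the root mean square difference over the 12 arrays, each gene taken relative to its wild-type mean. For Rasgrp1 these were Plpp1, a lipid phosphate phosphatase (0.53 log2 units), Pxdc1 (0.84) and Axin2, a scaffold that Wnt signals induce (0.96). Plpp1 differed from wild type by 5.98 in 15lox/15lox, 4.87 in 15lox/1638N and 1.59 in 15lox/1572T. For Pdcd1 they were Nrp2, a receptor for semaphorins (0.64), Pxdc1 (0.77) and Axin2 (0.82). Nrp2 differed by 4.13, 3.45 and 1.70 in the same order. Camk4 was nearest to Bcat1, which transfers amino groups of branched-chain amino acids (0.40), Spin4 (0.45) and Pla2g4c, a phospholipase (0.45), and Bcat1 likewise read highest in 15lox/1638N, by 1.57 against 0.66 in 15lox/15lox. Zap70 was nearest to Ldhb, a lactate dehydrogenase subunit (0.27), Arid5a (0.27) and the adaptor Grb14 (0.34), and Ldhb was 1.10 above wild type in 15lox/15lox and 0.09 in 15lox/1638N.

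**Figure D3:**
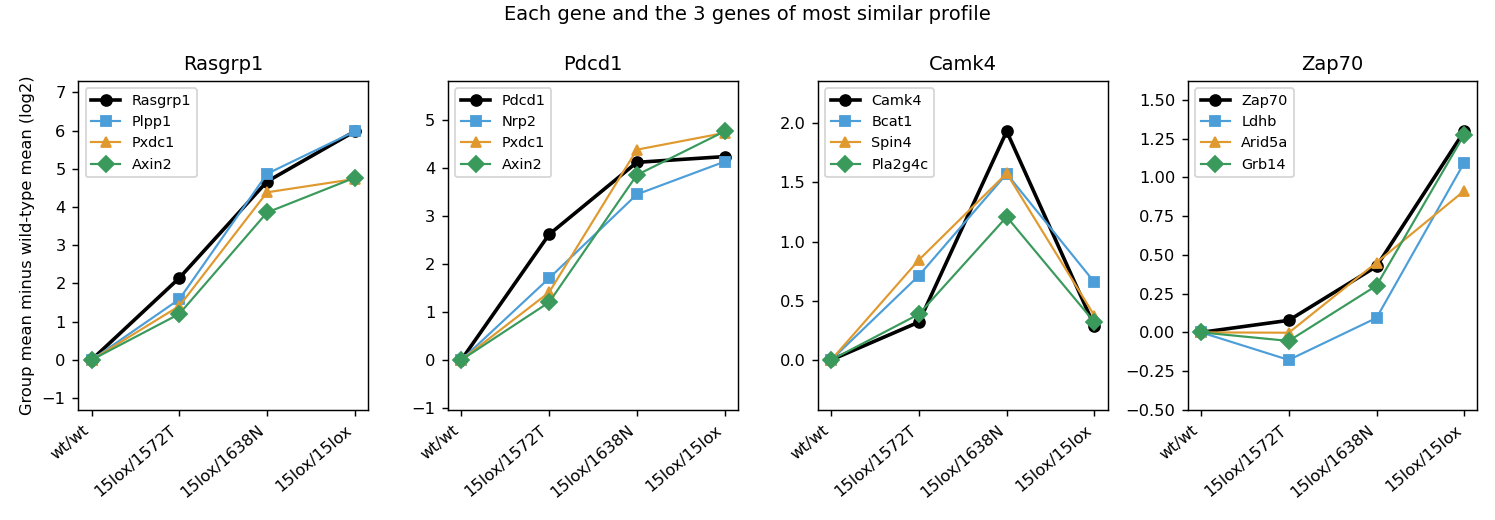
Group mean minus wild-type mean (log2, vertical axis, a separate range in each panel) by Apc genotype for each of the 4 genes, in black, and for the 3 genes of most similar profile over 12 arrays, in colour. Rasgrp1 and Pdcd1 share Pxdc1 and Axin2 among their nearest genes, while the genes nearest to Camk4 have their highest point in 15lox/1638N.

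The rest of the pathway was examined with 5 lists of signalling genes, of which 139 genes were measured besides the 4. The lists were chosen with earlier results of these data known. A share above that of all genes is therefore described and not read as enrichment. Tests were made with limma over all 18194 genes, and a gene passed at a Benjamini-Hochberg adjusted p under 0.05. In 15lox/15lox cells 11 of the 139 rose and 6 fell, which is 12.2% of them against 2.56% of all genes (1.81% higher, 0.747% lower). In 15lox/1638N cells 9 rose and 12 fell, 15.1% against 3.50% of all genes (1.08% higher, 2.41% lower). In 15lox/1572T cells 0 rose and 3 fell, 2.16% against 0.110% of all genes (0.0275% higher, 0.0824% lower). Genes that did not pass were not shown to be unchanged, in any list or genotype. The lists' median differences of -0.14, -0.12 and -0.05 stood beside medians over all genes of -0.05, -0.03 and -0.03. Between mutant genotypes, 1 list gene was higher in 15lox/15lox than in 15lox/1638N (0.440% of all genes passed, 0.412% higher and 0.0275% lower), 8 were higher in 15lox/15lox than in 15lox/1572T (1.66% of all genes, 1.55% higher and 0.110% lower), and 2 in 15lox/1638N than in 15lox/1572T (0.363% of all genes, 0.341% higher and 0.0220% lower). None was lower at this threshold in any of these 3.

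The largest increases in the lists, in 15lox/15lox and 15lox/1638N cells alike, included inhibitory receptors that, like PD-1, restrain lymphocytes. Cd160, a receptor of natural killer and T cells, read 6.63, 6.30 and 5.81 in wild type and 10.51, 10.48 and 10.71 in 15lox/15lox. It rose 20.0-fold there (log2 4.32 ± 0.28 SE, adjusted p = 8.0e-06) and 12.3-fold in 15lox/1638N (adjusted p = 7.5e-05), where it read 9.76, 9.72 and 10.11. Btla, a receptor of the same protein family as PD-1, read 7.45, 7.77 and 7.72 in wild type and 11.02, 10.93 and 11.21 in 15lox/15lox, and rose 10.6-fold (adjusted p = 1.2e-05). In 15lox/1638N Btla rose 4.79-fold (adjusted p = 0.00045). No array of either genotype overlapped wild type for either gene. Between mutant genotypes, Cd160 was higher in 15lox/15lox and in 15lox/1638N than in 15lox/1572T by 3.62 and 2.92, and Btla higher in 15lox/15lox than in 15lox/1572T by 2.21 (adjusted p = 3.4e-05, 0.00069 and 0.00026). Neither passed between 15lox/15lox and 15lox/1638N (adjusted p = 0.45 for Cd160 and 0.067 for Btla), nor did Btla between 15lox/1638N and 15lox/1572T (0.13).

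Of the 25 measured genes of the PD-1 and checkpoint list, 5 rose and 0 fell in 15lox/15lox, and 4 rose and 3 fell in 15lox/1638N. The nuclear receptor Nr4a3, induced by antigen receptor signals, rose by 2.52 ± 0.33 (SE) in 15lox/15lox (adjusted p = 0.0012), where it read 7.95, 8.84 and 7.47 against 5.62, 5.60 and 5.50 in wild type. Cd200 rose by 1.19 ± 0.22 in 15lox/15lox, and Nr4a2 by 0.77 ± 0.13 in 15lox/1638N, while Havcr2, the receptor TIM-3, fell by 1.19 ± 0.22 in 15lox/1638N. The regulator Tox, known in exhausted T cells, fell by 1.37 ± 0.17 in 15lox/1572T (adjusted p = 0.011) and fell by 0.85 ± 0.17 in 15lox/1638N (adjusted p = 0.019), and differed by -0.67 in 15lox/15lox without passing. The ligands of PD-1 did not pass in any mutant genotype: Cd274 differed from wild type by -0.28, -0.13 and 0.22 in 15lox/15lox, 15lox/1638N and 15lox/1572T, and Pdcd1lg2 by -0.03, -0.24 and -0.04. Nor did these receptors related to PD-1, unlike Btla: Cd28 differed by 0.64, 0.35 and 0.02, Ctla4 by -0.10, -0.19 and -0.30, and Icos by -0.45, -1.27 and -0.38 in the same order. Lag3 read -0.86, -1.33 and -0.86, none of them past the test.

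Among 24 genes induced by ERK signalling, 4 rose and 0 fell in 15lox/15lox and in 15lox/1638N each. Phlda1 rose from 5.58, 5.81 and 6.06 in wild type to 11.39, 10.96 and 10.71 in 15lox/15lox, 36.8-fold (log2 5.20 ± 0.35 SE, adjusted p = 1.0e-05), and 7.88-fold in 15lox/1638N (adjusted p = 0.0010). It was also higher in 15lox/15lox than in 15lox/1638N by 2.22 (adjusted p = 0.018) and than in 15lox/1572T by 4.73. The transcription factor Etv5 rose by 1.38 ± 0.20 and 1.02 ± 0.20 in 15lox/15lox and 15lox/1638N. The phosphatase Dusp4, which inactivates ERK, rose by 1.24 ± 0.24 and 1.40 ± 0.24, and the activation marker Cd69 by 0.71 ± 0.14 and 0.76 ± 0.14. All 24 genes had a median difference of -0.16 in 15lox/15lox and 0.28 in 15lox/1638N.

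Of 21 genes that set Ras activity, 2 rose and 3 fell in 15lox/15lox, and 1 rose and 3 fell in 15lox/1638N. Rasgrp2, the exchange factor of platelets, fell while its relative Rasgrp1 was higher: the differences were -0.60 ± 0.12 (SE) in 15lox/15lox (adjusted p = 0.025) and -0.55 ± 0.12 in 15lox/1638N (adjusted p = 0.038). Rasgrp3 differed from wild type by -0.36 and -0.45 and Rasgrp4 by -0.31 and -1.12 in these genotypes, without passing. Of 6 GTPase-activating proteins, which switch Ras off, 1 rose, 2 fell and 3 did not pass in both genotypes. Rasa2 rose by 0.73 ± 0.13 and 0.84 ± 0.13 in 15lox/15lox and 15lox/1638N, and Rasal3 fell, with differences of -0.65 ± 0.10 and -0.73 ± 0.10 (adjusted p = 0.0037 and 0.0033). Rasal1 fell in both, with differences of -1.23 ± 0.27 and -1.37 ± 0.27 (adjusted p = 0.031 and 0.019). Those that did not pass were Rasa1 (-0.05 and -0.05), Rasa3 (-0.25 and -0.25) and Nf1 (0.01 and 0.06). Dgka, a kinase that removes the diacylglycerol on which RASGRP1 depends, rose by 1.49 ± 0.30 in 15lox/15lox (adjusted p = 0.020) and differed by 0.03 in 15lox/1638N; it was also 1.57 higher in 15lox/15lox than in 15lox/1572T (adjusted p = 0.019).

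Around ZAP-70 itself, 0 of 34 receptor-proximal genes rose, and 3 fell in 15lox/15lox, 2 in 15lox/1638N and 1 in 15lox/1572T. Cd3g, a chain of the receptor complex, read 6.28, 6.20 and 5.78 in wild type and 4.58 to 4.89 on all 9 mutant arrays, and fell in 15lox/15lox, 15lox/1638N and 15lox/1572T, with differences of -1.28, -1.45 and -1.27 (SE 0.12; adjusted p = 0.00011, 0.00014 and 0.0026). All 9 mutant values lay within the range of Y-linked genes on female-type arrays, so these differences give only the least size of the fall. Lat, the adaptor that ZAP-70 phosphorylates, fell, with differences of -0.87 ± 0.14 and -1.01 ± 0.14 in 15lox/15lox and 15lox/1638N, reading 9.71 to 10.19 on these 6 arrays and 10.79 to 11.07 on those of wild type. The kinase Fyn fell by 0.75 ± 0.15 in 15lox/15lox. Syk, the relative of Zap70 used by B cells and myeloid cells, differed from wild type by 0.20, -0.20 and -0.21, and Lcp2, which encodes SLP-76, by -0.37, -0.36 and -0.31, none of them past the test.

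The calcium branch held 35 genes, of which 0 passed in 15lox/15lox, 4 fell in 15lox/1638N and 1 fell in 15lox/1572T. Nfatc2, a transcription factor opened to the nucleus by calcineurin, fell, with differences of -0.54 ± 0.09 (SE) in 15lox/1638N and -0.63 ± 0.09 in 15lox/1572T, and was 0.57 higher in 15lox/15lox than in 15lox/1572T (adjusted p = 0.0078). Hdac7, Camk2d and the calcium channel Itpr3 fell in 15lox/1638N, with differences of -0.64, -0.89 and -0.46. Of the other calmodulin kinases, Camk1 differed by -0.51 and -0.50 in 15lox/15lox and 15lox/1638N, Camk1d by -0.35 and -0.20, Camk1g by -0.14 and -0.35, Camk2a by -0.56 and -0.80, Camk2b by 0.40 and 0.34 and Camk2g by -0.19 and -0.45. Camkk2, which phosphorylates CAMK4, differed by 0.35 and 0.40. None of these passed (the lowest adjusted p were 0.051 for Camk1g and 0.059 for Camk2a, both in 15lox/1638N).

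**Figure D4:**
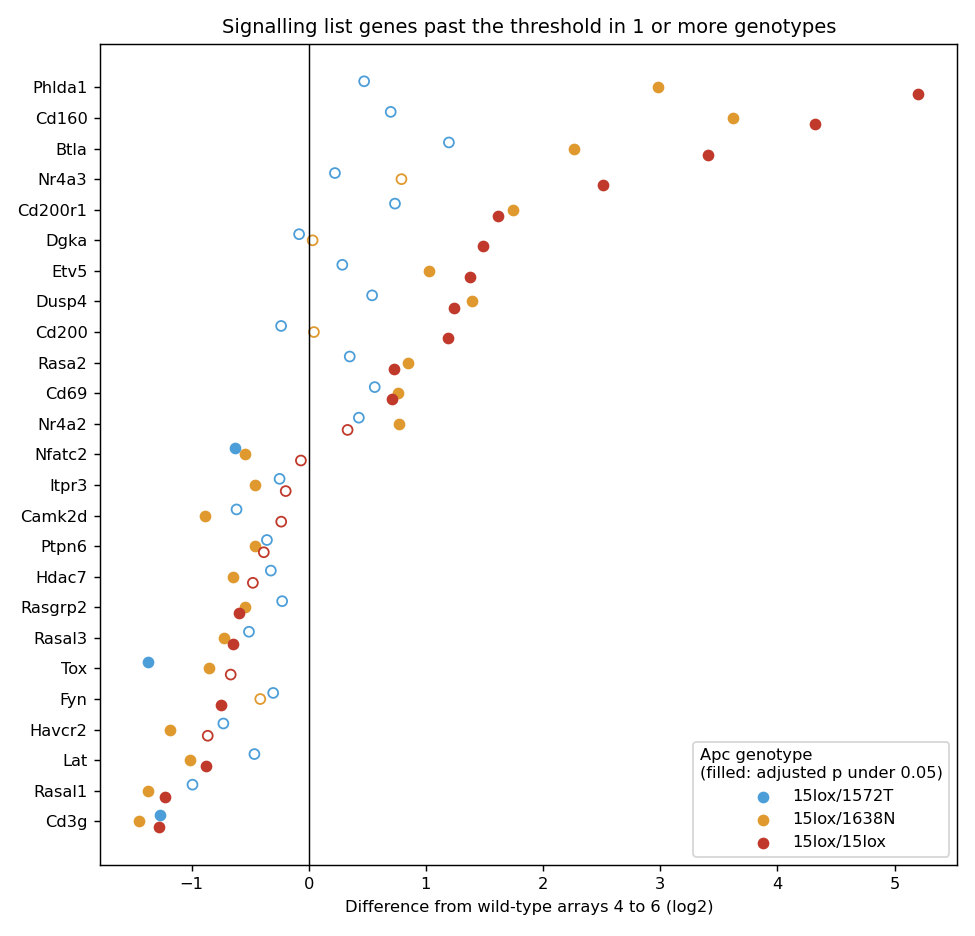
Difference from wild-type arrays 4 to 6 (log2, horizontal axis) of the list genes past the threshold in 1 or more mutant genotypes, ordered by the value in 15lox/15lox; filled points passed and open points did not. Phlda1, Cd160 and Btla lie farthest right in 15lox/15lox and 15lox/1638N, and Cd3g farthest left.

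Several of these calls ended when a single array was left out, and calls over all genes became fewer in the same fits. In 15lox/15lox the count of 17 list genes was 10 without wild-type array 5, and 11 with sex as a covariate, where Fyn, Dgka, Dusp4 and Cd69 did not pass. Over all genes the 465 calls became 292 and 262 in these 2 fits. Leaving out 1 array ended the call of Fyn (wild-type array 4 or 5, 15lox/15lox array 2 or 3; adjusted p up to 0.095), Dgka (wild-type array 4 or 5, 15lox/15lox array 1 or 3; up to 0.106), Rasgrp2 (wild-type array 5 or 6, any 15lox/15lox array; up to 0.110), Dusp4 (wild-type array 4 or 6, 15lox/15lox array 1 or 2; up to 0.061), Cd69 (wild-type array 5, 15lox/15lox array 1 or 3; up to 0.071), Cd200 (wild-type array 5, 15lox/15lox array 1; up to 0.068) and Rasal1 (wild-type array 5 or 6, 15lox/15lox array 2 or 3, 15lox/1638N array 1; up to 0.144). In 15lox/1638N the count of 21 was 13, 11 and 12 without wild-type array 4, 5 or 6, and 11 and 10 without 15lox/1638N array 1 or 2. Over all genes the 636 calls became 232, 244, 242, 260 and 219 in the same order. Each of these 5 arrays ended the calls of Rasgrp2 (adjusted p up to 0.163), Etv5 (0.095), Hdac7 (0.105) and Itpr3 (0.179), as did array 1 of 15lox/15lox and of 15lox/1572T for Rasgrp2, and arrays 1 and 2 of 15lox/1572T for Itpr3. Arrays 1 and 2 of 15lox/1638N also ended those of Rasal1 (up to 0.086; wild-type arrays 5 and 6 too), Camk2d (0.119; wild-type arrays 4 and 6 too) and Tox (0.082; wild-type arrays 4 and 5 too). Array 2 ended those of Havcr2 (0.081; wild-type arrays 5 and 6 too), Nfatc2 (0.055; wild-type array 5 too) and Nr4a2 (0.052), and array 1 that of Cd69 (0.066). In 15lox/1572T the count of 3 was 1 without wild-type array 5 or 15lox/1572T array 1, both of which ended the call of Tox (up to 0.057), and that of Nfatc2 ended without any of the 9 arrays of wild type, 15lox/1572T and 15lox/1638N (up to 0.192). Over all genes the 20 calls in 15lox/1572T became 5 without wild-type array 5 and 8 without 15lox/1572T array 1. Between genotypes, the call of Phlda1 against 15lox/1638N ended without array 1 or 2 of 15lox/15lox or array 2 of 15lox/1638N (up to 0.092), and that of Dgka against 15lox/1572T without array 1 or 3 of 15lox/15lox or any of 15lox/1572T (up to 0.085). The calls of Cd160, Btla, Nr4a3, Cd3g, Lat, Rasa2 and Rasal3 held in all 12 such fits, as did those of Phlda1 against wild type.

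Markers of mature T cells did not rise with the 4 genes. Of 10 measured, 0 rose and 1, Cd3g, fell in each mutant genotype, and the summed linear signal of the 10 ran from 1083 to 1404 in wild type, 622 to 1215 in 15lox/1572T, 667 to 1010 in 15lox/1638N and 1029 to 1176 in 15lox/15lox. Cd5 contributed more to the sum than any other marker on each of the 12 arrays, reading 7.82 to 9.32, and Cd2 read 5.80 to 8.63, while Cd6 read 6.06 to 7.10 and Bcl11b 5.51 to 5.95; none of these 4 passed. Cd3e read 4.72 to 5.17, Cd3d 4.94 to 5.46, Cd4 4.84 to 5.12 and Cd8b1 3.96 to 4.60, all inside the range of Y-linked genes on female-type arrays, and Cd8a read 5.32 to 5.84. Of 7 natural killer cell markers 0 rose and Il2rb fell in each mutant genotype, a call that in 15lox/1572T ended in 8 of the 12 fits with 1 array left out (adjusted p up to 0.169). Of 6 mast cell and basophil markers 0 passed in any genotype, and their summed signal read highest in 15lox/1572T (27194 to 32915 against 21035 to 25933 in wild type). It was 21397 to 23638 in 15lox/1638N and 18923 to 20897 in 15lox/15lox, the last below wild type. Gata2, which read 13.03 to 13.74 over the 12 arrays, made up a large part of this sum. The summed signal of the natural killer cell markers was 18790 to 21067 in wild type, 16790 to 19037 in 15lox/1572T, 15464 to 16383 in 15lox/1638N and 14581 to 18409 in 15lox/15lox, the last 2 without overlap with wild type. That of the B cell markers was 3520 to 3844 in wild type, 2664 to 3373 in 15lox/1572T, 1900 to 2739 in 15lox/1638N and 2087 to 3299 in 15lox/15lox, each below wild type. Cd79b made up most of the B cell sum on every array, reading 11.48 to 11.57 in wild type and 10.46 to 11.04 in 15lox/1638N. The B cell sum therefore mainly followed that gene and not the markers as a set. In the natural killer cell sum, Gzma and Eomes averaged 4.66 and 5.13 (log2) in wild type and added very little. That sum therefore does not describe its markers as a set either. The share of all probe sets lying wholly below wild type was not counted for comparison. The part of these markers in the results was not tested. Of 6 B cell markers only Cd79b passed against wild type, and it fell by 0.78 in 15lox/1638N, a call that ended in 8 of those 12 fits (adjusted p up to 0.179).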

How the data were processed

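Arrays were hybridised with biotin-labelled product amplified by Nugen Ovation V2 from RNA of sorted cells, per the labels. The deposited values are on the log2 scale, as read from their range; the submitters' processing notes name RMA and mm9 without a role or version, and the background correction is not given in the sources used here. The arrays' number limits the precision. No value was missing on the 15 arrays. The annotation of the platform pairs 34958 probe sets with 1 gene symbol, 932 with several and lists no gene for 9211. Only those with 1 symbol were used, and the probe set with the highest mean over the 12 arrays stood for a gene.

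The fit used limma 3.58.1 in R 4.3.3 (lmFit, eBayes defaults) with 4 groups and 8 residual degrees of freedom, without a filter or further normalization, two-sided. The fit was tested on simulated data with 200 changed genes. The members and lists were chosen with earlier results of these data known. Named list genes are the 4 of lowest p per list against wild type and the 2 between mutant genotypes, past the threshold, plus relatives of the members whatever their values; Lck, Tigit and Camkk1 were not analysed here. Il2rb, Cd79b, Camk1g, Camk2a, Rasa1, Rasa3, Nf1, Rasal1 in 15lox/15lox and Tox in 15lox/1638N were named after their values were seen.

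Alternatives covered controls, normalization, eBayes options, array weights, a filter, probe sets, sex, the replicate number and single arrays left out.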

Additional observations from a re-analysis of the deposited data

How the results depend on the processing

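Leaving out any of the 12 arrays moved none of the 12 differences of the 4 genes from wild type by a residual SD or more at their leading probe sets, nor did all 6 wild-type arrays, quantile normalization, sex as a covariate or the replicate block. A residual SD is a wide bar, since leaving out 1 of 3 arrays can hardly move a group mean that far. The lack of such moves is therefore not read as stability. With 1 array left out, Camk4 in 15lox/15lox ran from 0.054 to 0.55 and Zap70 in 15lox/1572T from -0.34 to 0.53. Wild-type arrays 1 to 3 had nearly the means of arrays 4 to 6, so adding them could hardly move a difference. The choice of probe set moved some differences by more. With the mean of all probe sets, Rasgrp1 differed by 3.07, 2.10 and 0.54 in 15lox/15lox, 15lox/1638N and 15lox/1572T, and Camk4 by 0.46 in 15lox/1638N. For Rasgrp1 the same 3 values were 1.57, 1.13 and 0.022 at 1421176_at, 2.72, 1.67 and 0.14 at 1431749_a_at, and 2.03, 0.94 and -0.15 at 1450143_at, the last a change of sign. For Camk4 they were -0.24, 0.034 and -0.31 at 1421941_at, 0.88 in 15lox/15lox and 0.13 in 15lox/1638N at 1439843_at, 0.12 in 15lox/1638N at 1426167_a_at, and 0.067 in 15lox/1638N and -0.17 in 15lox/1572T at 1452572_at. Zap70 in 15lox/15lox was 0.52 at 1439749_at. The cause was not tested.

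Counts of list genes against wild type (17, 21 and 3 in 15lox/15lox, 15lox/1638N and 15lox/1572T) were 34, 51 and 7 with all 6 wild-type arrays, whose spread is understated; over all genes these were 1199, 2578 and 196 against 465, 636 and 20, and with array weights 823, 2874 and 84. Over all genes sex as a covariate gave 262 in 15lox/15lox and 8 in 15lox/1572T, the 2 groups alone 993 in 15lox/1638N and 1 in 15lox/1572T, and in 15lox/1572T a filter on low values, which tests fewer genes, gave 9 and all probe sets 11. Array weights gave 51 in 15lox/1638N, sex as a covariate 11 in 15lox/15lox, and in 15lox/1572T the mean of probe sets gave 1 and the 2 groups alone 0. With 1 array left out the counts ran from 10 to 18, 10 to 28 and 1 to 3. Between 15lox/15lox and 15lox/1638N the count of 1 was 5 with all wild-type arrays and with trend and robust options, 3 with the mean of probe sets, 0 with the 2 groups alone, 7 with array weights and 0 to 4 with an array left out; over all genes the 80 became 176, 180, 53, 29 and 2 with all wild-type arrays, array weights, sex, the filter and the 2 groups alone. Between 15lox/15lox and 15lox/1572T the count of 8 was 5 with the 2 groups alone and 6 to 10 with an array left out (all genes 302, against 192 with the 2 groups alone and 193 with the filter). Between 15lox/1638N and 15lox/1572T the count of 2 was 1 with the 2 groups alone, 4 with array weights and 2 to 4 with an array left out (all genes 66, against 126 with all wild-type arrays, 127 with array weights and 21 with the 2 groups alone). Same-numbered arrays of different groups shared only a number (correlations of their deviations from the group means ran from -0.13 to 0.43, over 0.1 in 7 of 18 pairs). With the replicate block on all 15 arrays, where wild-type arrays 4 to 6 share no number with the mutants, the 6 counts were 15, 27 and 3 against wild type, and 3, 8 and 4 between mutant genotypes. Of the 45 list gene calls named, 24 held with every array left out in turn. Calls that ended under other settings include Rasgrp2 in both genotypes and Nr4a2 with the mean of probe sets and with the replicate block, and Camk2d with quantile normalization and with sex as a covariate. Itpr3 ended with quantile normalization, and Tox in 15lox/1572T with the mean of probe sets. With that mean the calls of Nfatc2 ended in 15lox/1638N, in 15lox/1572T and between 15lox/15lox and 15lox/1572T. The Nfatc2 calls that involve 15lox/1572T also ended with the 2 groups alone.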

Other observations

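Tnfrsf14, the ligand of both Btla and Cd160, was looked at after the increases of these receptors were seen. Its values lay near the level of Y-linked genes on female-type arrays. It read 5.37 to 5.93 on the wild-type arrays and 5.18 to 5.78 on the 15lox/15lox arrays, and did not pass in any mutant genotype (log2 differences of -0.21, -0.17 and -0.23 in 15lox/15lox, 15lox/1638N and 15lox/1572T; limma adjusted p = 0.75, 0.65 and 0.84). Cd200r1, the receptor of Cd200 and the fifth checkpoint gene by p, rose by 1.61 and 1.75 in 15lox/15lox and 15lox/1638N (limma adjusted p = 0.023 and 0.018), with values of 10.12, 9.73 and 9.74 and of 9.95, 9.76 and 10.29 against 8.43, 7.89 and 8.43 in wild type. Its call ended without any 1 of the wild-type arrays, without array 1 or 2 of 15lox/15lox there (adjusted p up to 0.117) and without array 1 of 15lox/1638N there (up to 0.074).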
